A study of Homo sapiens with 100 samples.

Results

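Aminoacyl-tRNA synthetases, the enzymes that charge each transfer RNA with its amino acid, were followed in the cell line TMD8, a model of diffuse large B cell lymphoma that depends on B cell receptor signals. The 35 transcripts were chosen by name: 19 encode cytosolic enzymes (names ending in 1, with FARSA and FARSB) and 16 encode mitochondrial enzymes (names ending in 2). All 35 were found once each among 78894 gene identifiers, and all 35 passed the filter on low counts in every comparison, so that no member is missing from any count given here. Transcript 3' ends were sequenced in 100 libraries. For 24 h, 6 A428D clones and 5 wild-type clones were each given zelebrudomide, bexobrutideg, pomalidomide, each of these together with venetoclax, venetoclax alone, or the solvent DMSO, which made 16 groups. Untreated cultures of the same 11 clones and of the parental line made the other 12 libraries. Every clone was a single-cell clone of TMD8, and the A428D clones carry that change in the endogenous BTK gene, per the growth and design texts, whereas the sample titles attach it to SF3B1. A count of 3' ends cannot check the base change. No dose is stated in the labels.

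BTK is the kinase that carries the B cell receptor signal. Zelebrudomide and bexobrutideg both degrade BTK. Zelebrudomide in addition removes the lymphoid transcription factors IKZF1 and IKZF3 by way of cereblon, as pomalidomide does, which leaves BTK alone. Venetoclax inhibits the survival protein BCL2. Most cytosolic synthetases and their mitochondrial counterparts are encoded by separate nuclear genes. GARS1 and KARS1 each supply both compartments, EPRS1 charges both glutamate and proline, and FARSA and FARSB are the subunits of the cytosolic phenylalanine enzyme. Many cytosolic synthetase genes are known targets of ATF4, the transcription factor of the amino acid and integrated stress response, while the mitochondrial genes are mostly not counted among them. WARS1 is in addition an interferon-inducible gene.

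A library held between 1.48 and 12.5 times 1000000 counted reads (median 7.14 times 1000000). The shallowest library was wild-type clone 3 under bexobrutideg with venetoclax, and the other libraries of the wild-type degrader combinations reached at most 6.12. Levels are counts per 1000000 reads (CPM). These are 3' end counts, so levels of different genes are not ranked here. All 6 B cell markers examined were expressed, at a summed 1771 to 3466 CPM, whereas the 3 T cell markers summed to at most 0.768 CPM and the 3 myeloid markers to at most 2.03 CPM. The 3 fibroblast markers summed to 2.1 to 32.9 CPM. Mitochondrially encoded transcripts took 6.24% to 11.1% of the counts. A gene was called at an edgeR quasi-likelihood p under 0.05 after Benjamini-Hochberg adjustment over all genes tested.

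Zelebrudomide lowered a large part of the cytosolic set in wild-type clones and few members of the mitochondrial set. Against DMSO, 10 of 19 cytosolic members fell and 0 rose, with a median log2 change of -0.32, and 1 of 16 mitochondrial members fell and 0 rose, with a median of -0.10. Over all 14962 genes tested, 6.57% were called, 3.05% higher and 3.52% lower, and the median change was -0.01. Mitochondrially encoded transcripts took 8.73% to 10.5% of counts under zelebrudomide and 7.30% to 9.07% under DMSO in these clones, with 0 of 13 such transcripts called by edgeR or DESeq2 (1 at an unadjusted p under 0.05) and 4 called higher with clones as blocks. Their part in the result was not tested. In bulk RNA of this kind, less RNA per cell and fewer cells of a type cannot be told apart.

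CARS1, the cysteine enzyme, changed most. It stood at 62.7, 57.0, 58.2, 61.7 and 50.5 CPM in wild-type clones 1 to 5 under zelebrudomide, against 123, 118, 124, 111 and 102 CPM in the same clones under DMSO. The groups did not overlap, and every clone was lower under the degrader. The log2 change was -0.99 ± 0.14 (SE; edgeR adjusted p = 7.98e-08).

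WARS1, the tryptophan enzyme, had 33.2, 30.6, 28.1, 49.0 and 28.98 CPM in wild-type clones 1 to 5 under zelebrudomide, against 58.2, 72.2, 56.8, 77.8 and 66.0 CPM under DMSO. All 5 zelebrudomide values lay below all 5 DMSO values, although clone 4 was high in both groups. The change was -0.96 ± 0.17 (edgeR adjusted p = 4.15e-05). GARS1, the glycine enzyme, had 67.3, 68.3, 79.9, 69.0 and 67.6 CPM under zelebrudomide, against 103, 123, 107, 108 and 99.7 CPM under DMSO. Again no value of one group reached the other, and the change was -0.62 ± 0.12 (edgeR adjusted p = 0.00014).

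The next members in size were IARS1, MARS1 and YARS1, the isoleucine, methionine and tyrosine enzymes. IARS1 averaged 55.1 ± 2.60 CPM under zelebrudomide and 82.8 ± 6.58 CPM under DMSO (SD, n = 5 each), a change of -0.59 ± 0.09 (edgeR adjusted p = 2.61e-06). MARS1 changed by -0.57 ± 0.09 (edgeR adjusted p = 6.56e-06), but its 3' end lies within 500 bases of DDIT3 on the opposite strand, and DDIT3, a stress-response factor, changed by -0.68 ± 0.20. The strand setting of the counting is not given in the sources used here, so reads of MARS1 and DDIT3 cannot be fully told apart. YARS1 changed by -0.50 ± 0.13 and EPRS1 by -0.48 ± 0.10. The remaining calls were SARS1, the serine enzyme, TARS1, the threonine enzyme, and LARS1, the leucine enzyme, at -0.41, -0.32 and -0.27.

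Not all of these calls were equally firm. LARS1 was no longer called without any 1 of the 11 clones (edgeR adjusted p up to 0.269), TARS1 without any 1 of 8 clones (up to 0.174), SARS1 without wild-type clone 4 (0.102) and YARS1 without wild-type clone 5 (0.138). AARS1, the alanine enzyme, was not called: its change of -0.33 ± 0.13 had an edgeR adjusted p of 0.119, but of 0.00731 when clones were paired as blocks, which made 11 cytosolic calls.

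The other members were not called. KARS1, the lysine enzyme, averaged 103 ± 6.70 CPM under zelebrudomide and 104 ± 6.47 CPM under DMSO, a change of -0.01 ± 0.08. HARS1, the histidine enzyme, stood at -0.00 ± 0.11, RARS1, the arginine enzyme, at -0.02 ± 0.08, and FARSA and FARSB at -0.16 ± 0.14 and -0.13 ± 0.15. QARS1, the glutamine enzyme, had the highest value of the set, 0.14 ± 0.07 (edgeR adjusted p = 0.306). All 10 called members were among the 12 listed here as known ATF4 targets, and 0 of the 7 other cytosolic members were called. The list of targets was drawn up with earlier results of these libraries known. Its summed level was 582 ± 17.3 CPM under zelebrudomide and 839 ± 30.6 CPM under DMSO, while the 7 others summed to 440 ± 32.6 CPM under zelebrudomide and 437 ± 19.01 CPM under DMSO.

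**Figure D1:**
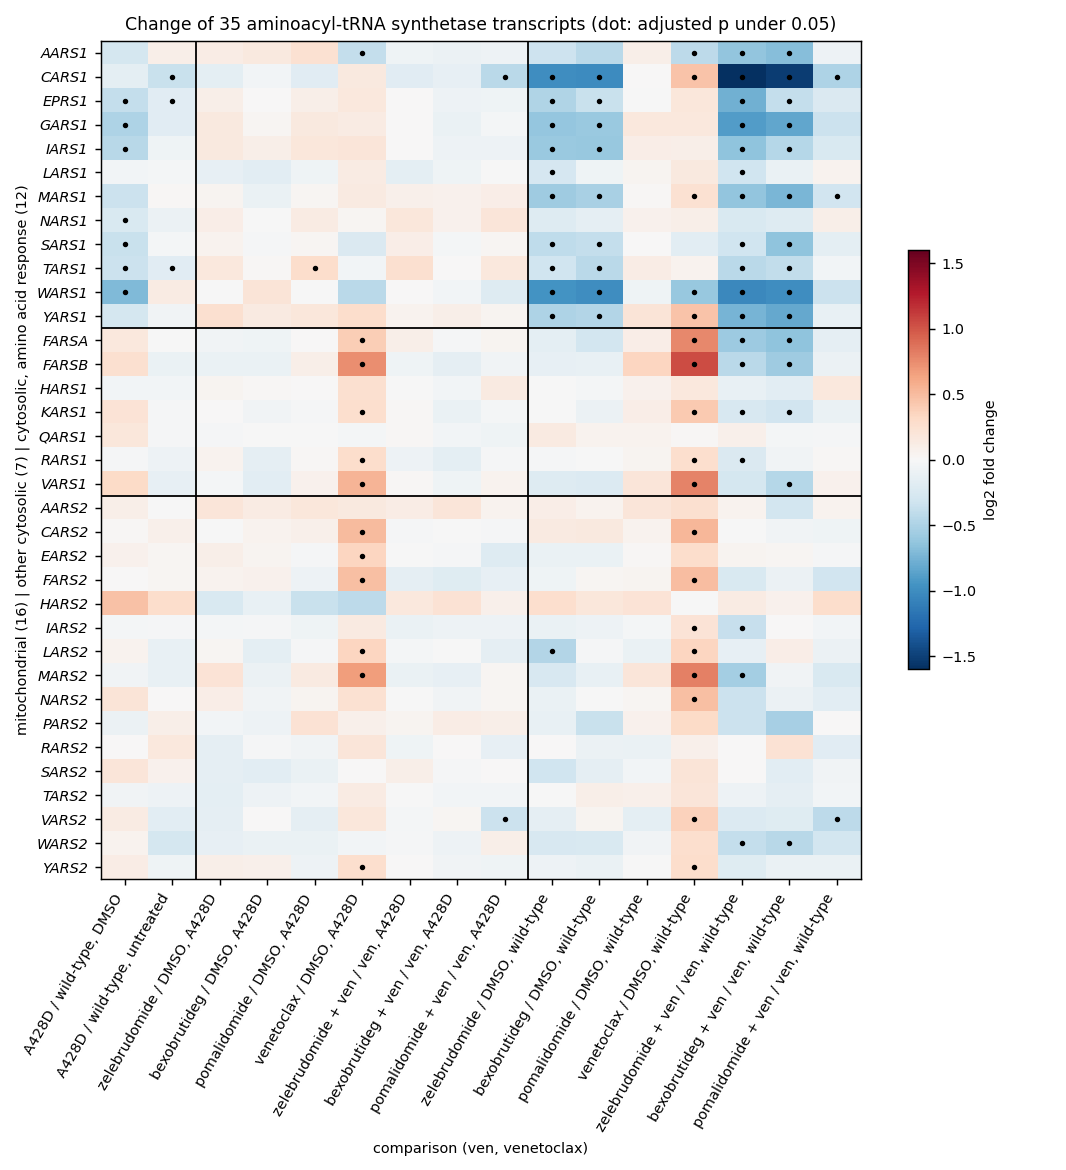
Log2 fold change of each of the 35 members (rows: 12 cytosolic members known as amino acid response targets, 7 other cytosolic members, 16 mitochondrial members) in 16 comparisons (columns), with a dot where the edgeR adjusted p is under 0.05. In the wild-type columns of a degrader against DMSO the dots lie in the top block except that of LARS2, in those of a degrader added to venetoclax they reach all 3 blocks, CARS1 is lowest at -1.59 with zelebrudomide added to venetoclax, and the A428D degrader columns hold no dot.

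The mitochondrial partners of the enzymes named first were not called: CARS2 stood at 0.15 ± 0.12, WARS2 at -0.26 ± 0.12, IARS2 at -0.10 ± 0.09, MARS2 at -0.26 ± 0.19 and YARS2 at -0.08 ± 0.10. Among mitochondrial enzymes, LARS2, the leucine enzyme, was the single call. It had 6.97, 4.97, 6.36, 7.28 and 4.09 CPM in wild-type clones 1 to 5 under zelebrudomide, against 9.68, 7.17, 9.34, 7.70 and 7.52 CPM under DMSO. The highest zelebrudomide value lay just above the lowest DMSO value, so the groups overlapped. Its change of -0.47 ± 0.15 (edgeR adjusted p = 0.0438) was lost without any 1 of 8 clones (up to 0.229), and DESeq2 called 0 mitochondrial members. SARS2, the serine enzyme, had 8.63, 10.6, 7.95, 9.88 and 9.24 CPM under zelebrudomide, against 12.2, 12.9, 10.9, 9.84 and 12.1 CPM under DMSO. The DMSO value of clone 4 lay within the zelebrudomide range, and SARS2 was not called (-0.32 ± 0.13).

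Bexobrutideg also lowered cytosolic members in wild-type clones, with fewer genes called in all. Against DMSO, 2.45% of all genes were called, 0.735% higher and 1.71% lower, yet 9 of 19 cytosolic members fell and 0 rose (median -0.36). Of the 16 mitochondrial members, 0 were called by edgeR and 0 by DESeq2, and 1 had an unadjusted p under 0.05. Mitochondrially encoded transcripts took 8.24% to 9.82% of counts under bexobrutideg and 7.30% to 9.07% under DMSO, and their part was not tested. CARS1 stood at 61.4, 52.5, 59.7, 58.3 and 55.1 CPM in clones 1 to 5, all below the DMSO values above, a change of -1.01 ± 0.14 (edgeR adjusted p = 1.89e-07). WARS1 had 31.9, 30.6, 29.1, 43.2 and 30.6 CPM, also without overlap with DMSO, a change of -1.0 ± 0.17 (edgeR adjusted p = 5.31e-05). GARS1 had 72.3, 74.2, 79.5, 63.5 and 68.7 CPM and changed by -0.60 ± 0.12 (edgeR adjusted p = 0.00076).

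IARS1, MARS1 and YARS1 followed at -0.61 ± 0.09, -0.52 ± 0.09 and -0.47 ± 0.13, and TARS1, SARS1 and EPRS1 at -0.43, -0.38 and -0.36. EPRS1, SARS1, TARS1 and YARS1 were each lost without at least 1 clone, with edgeR adjusted p values up to 0.226, 0.254, 0.0664 and 0.216.

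Zelebrudomide and bexobrutideg could be compared directly at 24 h, though their doses are not known. Between them 1.23% of all genes were called, and edgeR and DESeq2 each called 0 of 19 cytosolic and 0 of 16 mitochondrial members, with 1 unadjusted p under 0.05 in each set. For CARS1 the difference, zelebrudomide over bexobrutideg, was 0.02, with a 95% interval of -0.25 to 0.28 on the log2 scale. For WARS1 it was 0.04 (-0.30 to 0.39) and for GARS1 -0.02 (-0.26 to 0.21). LARS2 had the largest difference of the 35 members, -0.44 (-0.75 to -0.14, unadjusted), and did not pass the adjustment. These intervals do not show that the compounds act alike.

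Pomalidomide moved many genes in wild-type clones but no member. Against DMSO, 9.99% of all genes were called, 5.36% higher and 4.63% lower, while edgeR and DESeq2 each called 0 of 19 cytosolic members (median 0.07) and 0 of 16 mitochondrial members (median 0.03). At an unadjusted p under 0.05 there was 1 cytosolic and 0 mitochondrial, and with clones as blocks FARSB was called (0.34 ± 0.15; edgeR adjusted p = 0.156 without and 0.0276 with the block). CARS1 averaged 116 ± 3.73 CPM under pomalidomide and 115 ± 9.24 CPM under DMSO. Set directly against pomalidomide, zelebrudomide was lower in 12 of 19 cytosolic members and called in 0 of 16 mitochondrial members (0 by DESeq2, 1 with clones as blocks, 3 at an unadjusted p under 0.05), beside 7.43% of all genes called, 4.80% lower. The largest of these differences were CARS1 at -1.0 ± 0.14, WARS1 at -0.89 ± 0.17, GARS1 at -0.79 ± 0.12, YARS1 at -0.71 ± 0.13, IARS1 at -0.70 ± 0.09 and MARS1 at -0.59 ± 0.09. FARSB entered this list at -0.46 ± 0.15 (edgeR adjusted p = 0.044) but was lost without any 1 of 7 clones (up to 0.295). AARS1, LARS1 and SARS1 were also lost without at least 1 wild-type clone (up to 0.107, 0.0997 and 0.0576).

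WARS1 is also one of the interferon-stimulated genes, and it was set beside the others. Under pomalidomide 12 of 19 other interferon-stimulated genes rose and 1 fell in wild-type clones, among them IFIT3 (3.88 ± 0.33) and IFI44L (3.72 ± 0.43), antiviral effectors, whereas WARS1 stood at -0.07 ± 0.17 (edgeR adjusted p = 0.898). It had 50.3, 70.6, 57.5, 69.8 and 67.3 CPM in clones 1 to 5, which overlapped the DMSO values. Under zelebrudomide 6 of the 19 rose and 0 fell (10 and 0 with clones as blocks), for instance IFIT3 (1.77 ± 0.40), while WARS1 fell. Some listed amino acid response genes other than synthetases did not pass the expression filter. Of those tested, 18 of 25 fell and 0 rose under zelebrudomide, with a median of -0.68. These included CHAC1, a glutathione-degrading enzyme (-1.79 ± 0.43), PSAT1 and PHGDH, enzymes of serine synthesis (-1.48 ± 0.20 and -1.13 ± 0.27), and ATF4 itself (-0.94 ± 0.15; edgeR adjusted p = 5.74e-06). Under bexobrutideg 18 of 25 fell as well, and ATF4 changed by -0.97 ± 0.15. Of 14 mitochondrial translation factors, edgeR and DESeq2 called 0 under either degrader, with 1 at an unadjusted p under 0.05 in each and, with clones as blocks, 0 under zelebrudomide and 1 under bexobrutideg.

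Promoters were searched for a sequence known for the pairing of ATF4 with C/EBP proteins. RefSeq windows of 300 bases around each start (GRCh38.p14) were at hand for 30 of the 35 genes; AARS2, LARS1, VARS1, VARS2 and YARS1 were not among them. The motif TGATGNAA, searched on both strands, lay in 7 of 16 cytosolic genes and in 1 of 14 mitochondrial genes, beside 4.46% of all 27305 genes (3.62% of 35116 windows). Its stricter form TGATGCAA lay in 6 of 16 cytosolic and 0 of 14 mitochondrial genes, beside 1.08% of all genes (0.866% of windows). The stretches that hold either form are shown as a description, and a link between a match and a call was not tested. Each is given 5' to 3' in the direction of the gene, with the match in capitals (TTGCATCA is TGATGCAA read on the other strand).
CARS1, chr11:3057407-3057436, minus strand: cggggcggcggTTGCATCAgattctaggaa
GARS1, chr7:30594834-30594863, plus strand: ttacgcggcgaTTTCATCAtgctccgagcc
IARS1, chr9:92293692-92293721, minus strand: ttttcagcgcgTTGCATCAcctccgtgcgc
MARS1, chr12:57488053-57488082, plus strand: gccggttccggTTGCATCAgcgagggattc
TARS1, chr5:33440956-33440985, plus strand: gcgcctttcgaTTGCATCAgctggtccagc
AARS1, chr16:70289675-70289704, minus strand: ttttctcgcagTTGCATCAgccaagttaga
NARS1, chr18:57621804-57621833, minus strand: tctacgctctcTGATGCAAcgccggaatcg
YARS2 (mitochondrial), chr12:32756076-32756105, minus strand: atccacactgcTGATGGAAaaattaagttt
Under zelebrudomide against DMSO, CARS1, GARS1, IARS1, MARS1 and TARS1 were called with a match, and EPRS1, SARS1 and WARS1 without one in these windows. LARS1 and YARS1 were called but had no window. AARS1 and NARS1 hold a match and were not called under either degrader against DMSO without clone blocks. AARS1 was called under zelebrudomide with clones as blocks, and with bexobrutideg added to venetoclax without them. With clones as blocks, all 12 listed ATF4 targets, AARS1 and NARS1 among them, were called lower when zelebrudomide was added to venetoclax in wild-type clones. A match of letters is a description of the window and not a site of binding.

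WARS1 is shown for a different motif pair. In the window of one of its starts, 117 bases upstream hold TTCNNNGAA, the pattern of a gamma-activated site, and an interferon-stimulated response element, searched as GAAA repeated after any 2 bases, both in capitals and both searched on either strand. The gamma-activated pattern lay in 3 of 16 cytosolic genes (CARS1, TARS1 and WARS1) and 2 of 14 mitochondrial genes (PARS2 and WARS2), beside 9.38% of all genes (7.66% of windows). The response element lay in 1 of 16 cytosolic genes (WARS1) and 1 of 14 mitochondrial genes (EARS2), beside 4.38% of all genes (3.57% of windows).
WARS1, chr14:100375383-100375499, minus strand: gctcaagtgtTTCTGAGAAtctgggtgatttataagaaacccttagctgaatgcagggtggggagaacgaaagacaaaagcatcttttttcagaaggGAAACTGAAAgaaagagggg

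In A428D clones no member was called under either degrader. Under zelebrudomide 2.06% of all genes were called against DMSO, 1.34% higher and 0.715% lower, but edgeR and DESeq2 each called 0 of 19 cytosolic members (median 0.05) and 0 of 16 mitochondrial members (median -0.02), with 1 and 0 at an unadjusted p under 0.05. Under bexobrutideg both tools called 0 genes in all (0%; 288 at an unadjusted p under 0.05), with 2 cytosolic and 0 mitochondrial members at an unadjusted p under 0.05. CARS1 ran from 69.5 through a median of 97.9 to 116 CPM in A428D clones under zelebrudomide, against 68.9, 112 and 135 CPM under DMSO. The groups overlapped nearly throughout, and the change was -0.15 ± 0.12, with 5 of 6 clones lower than under their own DMSO. WARS1 ran from 31.2 through 37.0 to 64.0 CPM under zelebrudomide, against 32.0, 38.1 and 57.9 CPM under DMSO, a change of -0.00 ± 0.16. GARS1 ran from 62.3 through 88.4 to 105 CPM under zelebrudomide, against 60, 79.2 and 91.7 CPM under DMSO, a change of 0.16 ± 0.11. All 6 clones were higher in GARS1 than under their own DMSO, but it was not called with clones as blocks either (edgeR adjusted p = 0.174).

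The genotypes were then compared in 1 test of the difference between their changes, with A428D taken minus wild-type. For zelebrudomide it was called in 1.04% of all genes, 0.849% higher in A428D clones, and in 7 of 19 cytosolic members, each with a positive difference, and in 0 of 16 mitochondrial members by edgeR and by DESeq2 (1 at an unadjusted p under 0.05). WARS1 differed by 0.95 ± 0.23 (edgeR adjusted p = 0.019), CARS1 by 0.84 ± 0.18 (0.00422), GARS1 by 0.78 ± 0.16 (0.00258), YARS1 by 0.76 ± 0.18 (0.00981) and IARS1 by 0.74 ± 0.13 (8.97e-05). MARS1 and EPRS1 completed the list at 0.62 and 0.57. WARS1 was lost without any 1 of 4 clones (up to 0.0865), EPRS1 without A428D clone 4 (0.0574) and YARS1 without wild-type clone 5 (0.0877).

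For bexobrutideg the difference was called in 0.615% of all genes, 0.495% higher in A428D clones, and in 4 of 19 cytosolic members, and in 0 of 16 mitochondrial members by either tool, with 0 at an unadjusted p under 0.05. WARS1 differed by 1.21 ± 0.23 (edgeR adjusted p = 0.00118), CARS1 by 0.96 ± 0.18 (0.000847), IARS1 by 0.70 ± 0.13 (0.000506) and GARS1 by 0.63 ± 0.16 (0.0377). GARS1 was lost without any 1 of 7 clones (up to 0.184). With clones as blocks 9 cytosolic members were called instead of 4. For pomalidomide and for venetoclax alone, edgeR and DESeq2 each called 0 genes in all (0%), with 253 and 709 at an unadjusted p under 0.05, 1 member among them in each case.

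**Figure D2:**
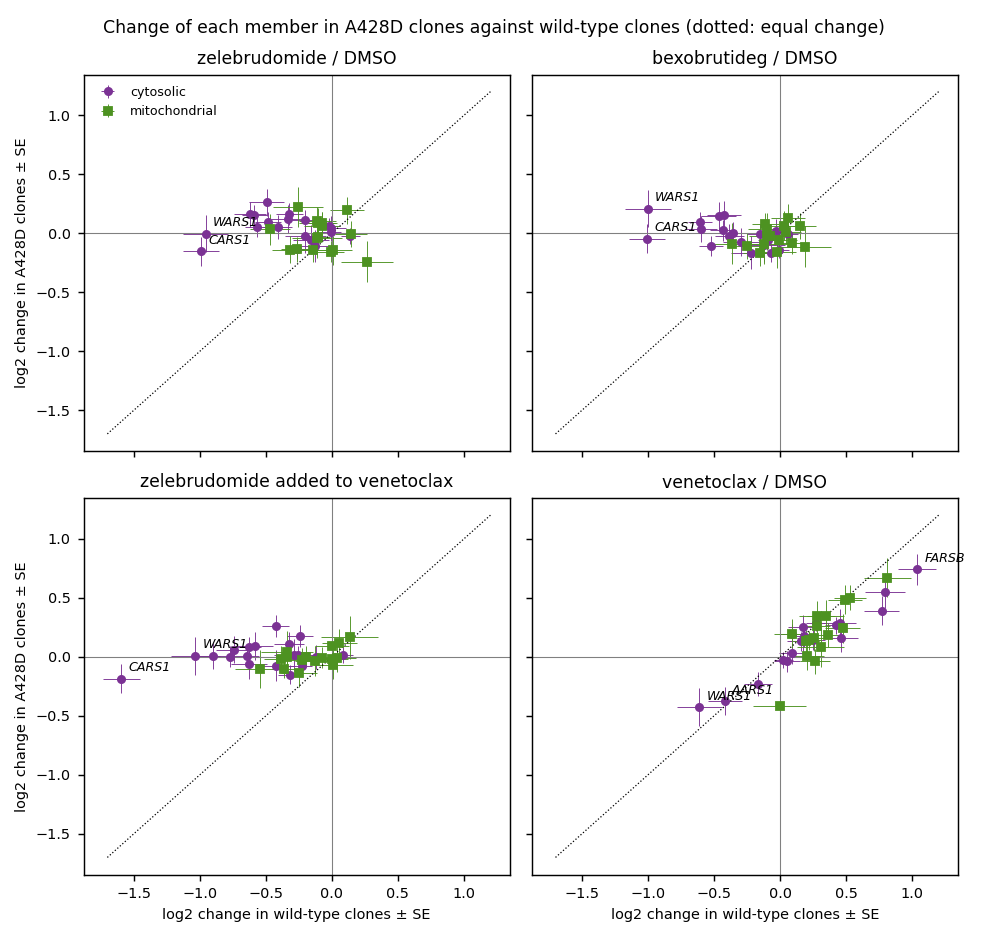
Log2 change of each member in A428D clones (vertical) against its change in wild-type clones (horizontal), both ± SE, in 4 comparisons, with cytosolic members as circles and mitochondrial members as squares. In the 3 degrader panels CARS1 and WARS1 lie far left of the dotted line of equal change and near 0 on the vertical axis, whereas in the venetoclax panel the points run along the line with FARSB at 1.04 in wild-type clones and 0.74 in A428D clones.

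The genotypes also differed under DMSO, where the called cytosolic members were lower in A428D clones. Without any drug other than the solvent, 7.13% of all genes differed, 3.30% higher and 3.83% lower in A428D clones, and 7 of 19 cytosolic members were lower and 0 higher in A428D clones. Of 16 mitochondrial members, edgeR and DESeq2 called 0, with 1 at an unadjusted p under 0.05. WARS1 had a lowest value, median and highest value of 32.0, 38.1 and 57.9 CPM in A428D clones, against single values of 58.2, 72.2, 56.8, 77.8 and 66.0 CPM in wild-type clones. The highest A428D clone, clone 3, lay above the lowest wild-type value and the other 5 below it, and the difference was -0.71 ± 0.13 (edgeR adjusted p = 0.00721). GARS1 had 60, 79.2 and 91.7 CPM in A428D clones, all below the lowest wild-type value of 99.7 CPM, a difference of -0.50 ± 0.11 (edgeR adjusted p = 0.0121). IARS1 (-0.45 ± 0.08), EPRS1 (-0.38 ± 0.09), SARS1 (-0.36 ± 0.09), TARS1 (-0.35 ± 0.07) and NARS1, the asparagine enzyme (-0.24 ± 0.06), made up the rest.

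All 7 are in the list of ATF4 targets, which holds 12 of the 19 cytosolic members. As that list was drawn up with earlier results of these libraries known, the overlap is given as a description only. CARS1 was not among the calls, at -0.16 ± 0.14 (edgeR adjusted p = 0.536) and A428D clones spread from 68.9 to 135 CPM. EPRS1, NARS1 and SARS1 were each lost without at least 1 clone, with adjusted p values up to 0.0524, 0.0898 and 0.0706. Of the other amino acid response genes, 11 of 25 were lower and 0 higher in A428D clones, with CHAC1 at -1.79 ± 0.31 and SESN2, a stress-induced leucine sensor, at -1.52 ± 0.21. The 12 targets summed to 698 ± 44.4 CPM under zelebrudomide and 672 ± 42.8 CPM under DMSO in A428D clones, beside the 582 ± 17.3 CPM and 839 ± 30.6 CPM of wild-type clones given above.

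In untreated cultures the genotype calls were CARS1, EPRS1 and TARS1. There 5.90% of all genes differed, 3.50% higher and 2.40% lower in A428D clones, and 3 of 19 cytosolic members were lower and 0 higher; edgeR and DESeq2 called 0 of 16 mitochondrial members, with 2 at an unadjusted p under 0.05. CARS1 ran from 56.9 through 73.6 to 82.0 CPM in untreated A428D clones, against 99.0, 90.7, 87.98, 90.4 and 89.0 CPM in untreated wild-type clones and 89.9 CPM in the single parental library. The groups did not overlap, and the difference was -0.36 ± 0.08 (edgeR adjusted p = 0.0188). EPRS1 and TARS1 were lower by -0.19 each and were lost without any 1 of 7 and of 9 clones (up to 0.113 and 0.108). WARS1 ran from 29.7 through 32.7 to 37.3 CPM in untreated A428D clones, against 31.7, 29.9, 30.3, 29.7 and 28.5 CPM in wild-type clones, with no call (0.13 ± 0.06).

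**Figure D3:**
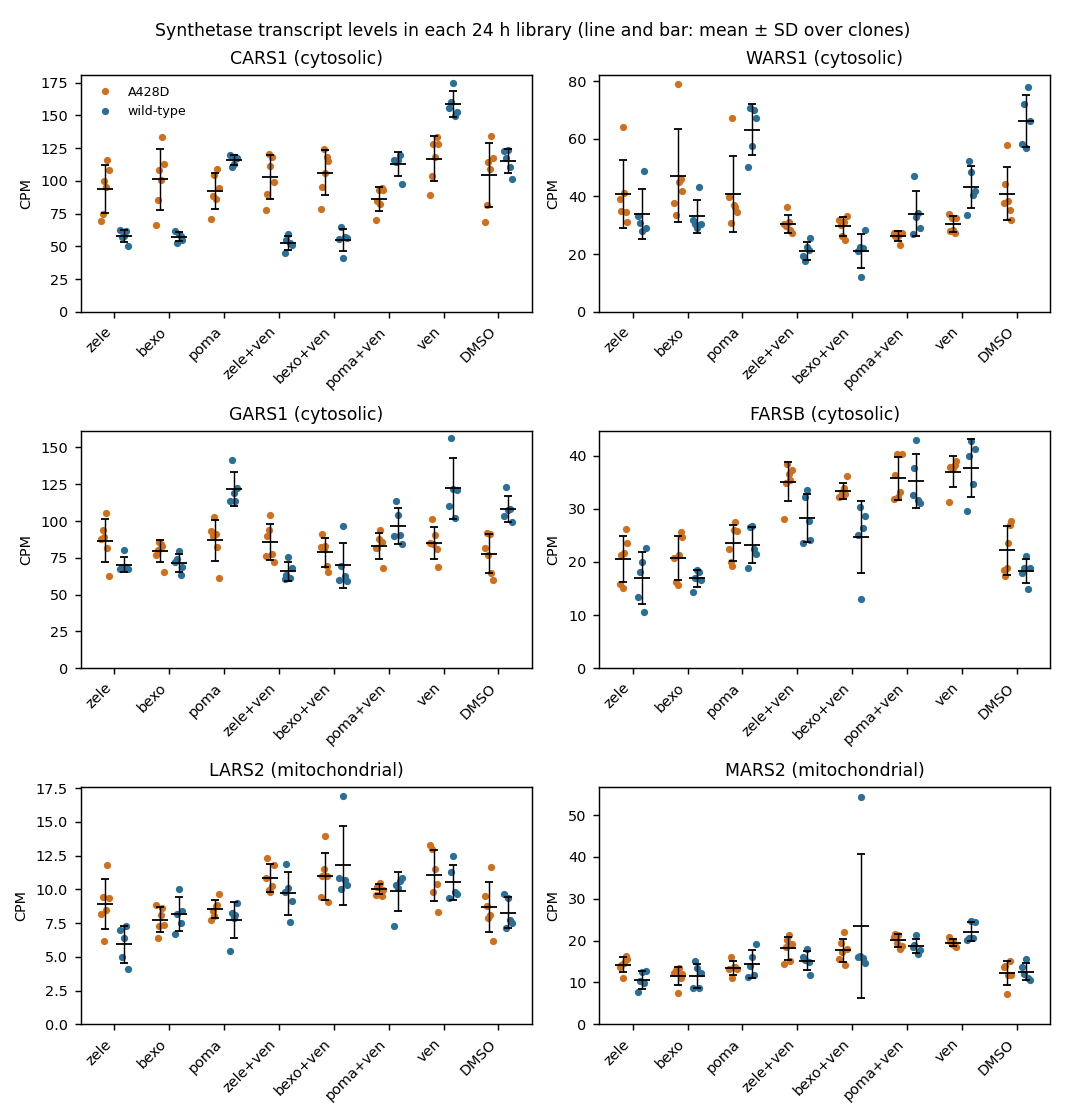
CPM of 6 members in each 24 h library (dots), by condition, with A428D clones left of wild-type clones, and the mean ± SD over clones (zele, zelebrudomide; bexo, bexobrutideg; poma, pomalidomide; ven, venetoclax). Wild-type CARS1 sits at 50.5 to 62.7 CPM under zelebrudomide against 102 to 124 CPM under DMSO, FARSB and MARS2 have means above those under DMSO in every group with venetoclax, and the lone MARS2 point at 54.3 CPM is the shallowest library.

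Venetoclax alone raised synthetases of both compartments, among a broad change. In wild-type clones 32.8% of all genes were called against DMSO, 15.4% higher and 17.4% lower. Of 19 cytosolic members 8 rose and 2 fell (median 0.17), and of 16 mitochondrial members 8 rose and 0 fell (median 0.28), beside a median of -0.06 over all genes.

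FARSB, which was not called under either degrader, changed most. It had 29.5, 40.0, 42.8, 34.6 and 41.2 CPM in wild-type clones 1 to 5 under venetoclax, against 18.0, 18.8, 21.2, 14.98 and 18.9 CPM under DMSO. The groups were far apart, at a change of 1.04 ± 0.15 (edgeR adjusted p = 5.98e-08). Its partner subunit FARSA averaged 60.9 ± 4.63 CPM under venetoclax and 35.8 ± 4.03 CPM under DMSO, a change of 0.77 ± 0.13 (edgeR adjusted p = 3.98e-06). VARS1, the valine enzyme, rose by 0.79 ± 0.15, and KARS1 and RARS1 by 0.42 ± 0.08 and 0.27 ± 0.07, so that 5 of the 7 cytosolic members outside the ATF4 list were called higher. Of the 12 on that list, CARS1 (0.46 ± 0.13), YARS1 (0.45 ± 0.12) and MARS1 (0.25 ± 0.09) rose, while WARS1 (-0.61 ± 0.17) and AARS1 (-0.42 ± 0.13) fell. DDIT3, the neighbour whose reads may mix with those of MARS1, changed by -0.99 ± 0.20 (edgeR adjusted p = 5.02e-05). ATF4 itself changed by -0.42 ± 0.15 (edgeR adjusted p = 0.0271). HARS1 was not called at 0.17 ± 0.11, and HARS2 stood at -0.00 ± 0.20 on counts of only 7 to 36 per library over the series. The GENCODE 29 genes of this pair overlap head to head on opposite strands, with 84 bases between their RefSeq starts.

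Among the mitochondrial members MARS2, the methionine enzyme, led. It had 20.2, 20.6, 24.8, 20.5 and 24.5 CPM in wild-type clones under venetoclax, against 13.6, 12.1, 15.5, 11.1 and 10.6 CPM under DMSO, with no overlap and a change of 0.81 ± 0.18 (edgeR adjusted p = 0.0002). CARS2 (0.53 ± 0.12), FARS2 (0.49 ± 0.13), NARS2 (0.48 ± 0.13) and VARS2 (0.36 ± 0.11) followed, and LARS2, YARS2 and IARS2 were called at 0.34, 0.28 and 0.22. Of these, VARS2, LARS2, YARS2 and IARS2 were lost without at least 1 wild-type clone (edgeR adjusted p up to 0.0549, 0.141, 0.0691 and 0.103), as were AARS1, MARS1 and WARS1 (up to 0.117, 0.135 and 0.0544). Mitochondrial translation factors gave 4 calls higher and 1 lower of 14, led by the elongation factor GFM1 (0.70 ± 0.11). The scaffolds EEF1E1 and AIMP2, which hold part of the cytosolic enzymes in the multisynthetase complex, rose by 0.71 ± 0.13 and 0.65 ± 0.12. Another scaffold of this complex, AIMP1, was not called (0.03 ± 0.08; edgeR adjusted p = 0.823). The other amino acid response genes went down in part, 11 of 25 tested lower and 0 higher (16 and 1 with clones as blocks).

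Venetoclax also raised synthetases in A428D clones. Of all genes 16.8% were called, 8.05% higher and 8.79% lower, with 5 cytosolic members higher and 1 lower of 19 and 6 mitochondrial members higher and 0 lower of 16. FARSB ran from 31.3 through 37.9 to 39.1 CPM under venetoclax, against 17.3, 21.3 and 27.7 CPM under DMSO, without overlap and with a change of 0.74 ± 0.13 (edgeR adjusted p = 4.11e-05). VARS1 (0.55 ± 0.14), FARSA (0.39 ± 0.12), RARS1 (0.29 ± 0.07) and KARS1 (0.27 ± 0.07) rose as well, and AARS1 fell (-0.38 ± 0.12). MARS2 ran from 18.6 through 19.5 to 20.9 CPM under venetoclax, against 7.19, 12.8 and 15.04 CPM under DMSO, a change of 0.67 ± 0.17 (edgeR adjusted p = 0.00254). CARS2, FARS2, LARS2, EARS2 and YARS2 were the other mitochondrial calls, at 0.26 to 0.50.

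With clones as blocks 13 cytosolic members were called in A428D clones instead of 6. AARS1, FARSA, EARS2, LARS2 and YARS2 were lost without at least 1 clone (edgeR adjusted p up to 0.186, 0.0731, 0.167, 0.142 and 0.105). No member's response to venetoclax was called different between the genotypes. For FARSB the difference was -0.30 ± 0.20 and for WARS1 0.18 ± 0.23.

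Adding a degrader to venetoclax lowered most of the cytosolic set in wild-type clones. With zelebrudomide, 15 of 19 cytosolic and 3 of 16 mitochondrial members were lower than under venetoclax alone and 0 were higher (medians -0.43 and -0.16), beside 21.2% of all genes called, 11.6% higher and 9.61% lower, and an overall median of 0.03. Mitochondrially encoded transcripts took 9.41% to 10.3% of counts under the combination and 7.73% to 8.95% under venetoclax, without overlap, and 4 of 13 were called higher (10 with clones as blocks). Their part in the result was not tested. CARS1 had 44.8, 55.2, 59.4, 52.7 and 51.4 CPM in clones 1 to 5 under the combination, against 156, 160, 175, 149 and 153 CPM under venetoclax. The groups were far apart, at -1.59 ± 0.14 (edgeR adjusted p = 4.96e-15). WARS1 had 19.2, 17.5, 22.5, 21.3 and 25.7 CPM, against 33.5, 52.4, 48.4, 40.4 and 42.0 CPM under venetoclax, again without overlap (-1.03 ± 0.19; edgeR adjusted p = 2.12e-05).

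GARS1 (-0.90 ± 0.12), EPRS1 (-0.77 ± 0.10), YARS1 (-0.74 ± 0.13) and IARS1 (-0.65 ± 0.09) followed. Here members outside the ATF4 list took part, 4 of 7: FARSA (-0.58 ± 0.14), FARSB (-0.43 ± 0.15), KARS1 (-0.26 ± 0.08) and RARS1 (-0.23 ± 0.08). FARSB averaged 28.3 ± 4.59 CPM under the combination and 37.6 ± 5.47 CPM under venetoclax, and it was lost without any 1 of 3 wild-type clones, 1, 2 and 5 (edgeR adjusted p up to 0.116). RARS1 was lost without clone 5 (0.111) and SARS1 without clone 2 (0.10). The mitochondrial calls were MARS2 (-0.55 ± 0.19), WARS2, the tryptophan enzyme (-0.38 ± 0.13), and IARS2 (-0.36 ± 0.09), of which MARS2 was lost without clone 5 (0.114) and WARS2 without any 1 of 3 clones (up to 0.0766).

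With bexobrutideg added to venetoclax, 14 of 19 cytosolic members and 1 of 16 mitochondrial members were lower and 0 higher (medians -0.46 and -0.09), beside 15.5% of all genes called, 7.51% lower. Mitochondrially encoded transcripts took 6.24% to 9.96% of counts under this combination and 7.73% to 8.95% under venetoclax. The 6.24% was the shallowest library, that of clone 3, and the other clones held 9.22% to 9.96%, above every venetoclax library. Of 13 such transcripts 2 were called higher (4 with clones as blocks), and their part was not tested. CARS1 had 55.8, 64.7, 41.4, 57.0 and 56.1 CPM in clones 1 to 5 and changed by -1.51 ± 0.14 (edgeR adjusted p = 4.67e-14), with no overlap with venetoclax alone. WARS1 (-0.99 ± 0.19), GARS1 (-0.83 ± 0.12), YARS1 (-0.81 ± 0.13), MARS1 (-0.73 ± 0.10) and AARS1 (-0.68 ± 0.14) followed, and the mitochondrial call was WARS2 (-0.45 ± 0.13), lost without clone 1 or clone 4 (up to 0.0623). Clone 3 of this group was the shallowest library and stood apart in several members, with 54.3 CPM of MARS2 against 14.6 to 16.4 CPM in the other 4 clones and 3.99 CPM of SARS2 against 11.4 to 14.6 CPM. VARS1 was lost without clone 3 (edgeR adjusted p = 0.264) and FARSB likewise (0.0677).

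Pomalidomide added to venetoclax in wild-type clones called 8.41% of all genes, 5.31% higher and 3.10% lower, and lowered CARS1 (-0.49 ± 0.13; edgeR adjusted p = 0.00828), MARS1 (-0.30 ± 0.09) and, among mitochondrial members, VARS2 (-0.42 ± 0.11). CARS1 was lost without clone 5 (0.0537) and MARS1 without clone 2 or clone 3 (up to 0.218), and with clones as blocks 5 cytosolic members were called instead of 2.

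In A428D clones few members or none were called when a drug was added to venetoclax. With zelebrudomide 1.07% of all genes were called, 0.655% higher and 0.414% lower, and 0 of 19 cytosolic and 0 of 16 mitochondrial members, by edgeR and by DESeq2, with 1 and 0 at an unadjusted p under 0.05. With clones as blocks TARS1 was called higher (0.26; edgeR adjusted p = 0.0164, against 0.21 without the block). With bexobrutideg both tools called 0 genes (0%; 232 at an unadjusted p under 0.05), and again 1 cytosolic and 0 mitochondrial members had an unadjusted p under 0.05. CARS1 ran from 77.6 through 105 to 120 CPM with zelebrudomide and venetoclax, against 89.0, 123 and 134 CPM under venetoclax, with a change of -0.18 ± 0.12 that was not called. Within clones CARS1 was lower under this combination in 6 of 6 A428D clones (edgeR adjusted p = 0.0672 with clones as blocks), and in 6 of 6 under bexobrutideg with venetoclax (-0.14), also without a call. With pomalidomide 7.91% of all genes were called, 4.60% higher and 3.31% lower, and CARS1 (-0.44 ± 0.12; edgeR adjusted p = 0.0114) and VARS2 (-0.34 ± 0.10; edgeR adjusted p = 0.0231) fell, each lost without at least 1 clone (up to 0.0504 and 0.135). Under pomalidomide alone in A428D clones 8.68% of all genes were called, 4.92% higher and 3.76% lower, and TARS1 rose by 0.29 ± 0.09 (edgeR adjusted p = 0.0324), but it was lost without any 1 of the 6 A428D clones (up to 0.129), and 3 cytosolic members were called with clones as blocks. There 0 mitochondrial members were called by either tool, with 1 at an unadjusted p under 0.05.

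The difference between genotypes in the response to zelebrudomide added to venetoclax was called in 6.22% of all genes, 2.99% higher in A428D clones, and in 11 of 19 cytosolic members, all in that direction. CARS1 differed by 1.41 ± 0.18 (edgeR adjusted p = 5.84e-08), WARS1 by 1.04 ± 0.25 (0.0043), GARS1 by 0.91 ± 0.16 (8.88e-05) and FARSA by 0.67 ± 0.18 (0.0134). AARS1 and NARS1 were lost without any 1 of 7 and of 6 clones (up to 0.126 and 0.0859). For bexobrutideg added to venetoclax it was called in 3.36% of all genes, 1.57% higher in A428D clones, and in 7 of 19 cytosolic members, with CARS1 at 1.38 ± 0.18 (edgeR adjusted p = 1.72e-07), and in 11 with clones as blocks. SARS1 and WARS1 were lost there without wild-type clone 3 (0.0849 and 0.0898) and FARSA without any 1 of 3 clones (up to 0.101). Of 16 mitochondrial members 0 were called in either case by edgeR and DESeq2, with 2 and 3 at an unadjusted p under 0.05. With clones as blocks AARS2, the mitochondrial alanine enzyme, was called for bexobrutideg added to venetoclax (0.47; edgeR adjusted p = 0.0411, against 0.11 without the block). For pomalidomide added to venetoclax both tools called 0 genes (0%; 285 at an unadjusted p under 0.05), with 1 cytosolic and 1 mitochondrial member at an unadjusted p under 0.05.

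The summed level of each set shows both movements at once. The 19 cytosolic members summed to 1022 ± 22.5 CPM under zelebrudomide, 1013 ± 31.3 CPM under bexobrutideg, 1345 ± 59.9 CPM under pomalidomide, 1464 ± 110 CPM under venetoclax and 1276 ± 37.6 CPM under DMSO in wild-type clones. With venetoclax, zelebrudomide brought the sum to 1045 ± 38.5 CPM and bexobrutideg to 1051 ± 31.0 CPM, against 1464 ± 110 CPM for venetoclax alone. In A428D clones the 8 group means ran from 1154 ± 51.0 CPM under bexobrutideg to 1288 ± 63.0 CPM under zelebrudomide with venetoclax, with 1168 ± 49.1 CPM under DMSO.

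The 16 mitochondrial members summed to 201 ± 5.97 CPM under zelebrudomide, 269 ± 11.6 CPM under venetoclax and 213 ± 7.12 CPM under DMSO in wild-type clones. In A428D clones they summed to 223 ± 13.3 CPM under zelebrudomide, 265 ± 9.90 CPM under venetoclax and 223 ± 18.2 CPM under DMSO. The venetoclax libraries of both genotypes lay above all DMSO libraries.

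**Figure D4:**
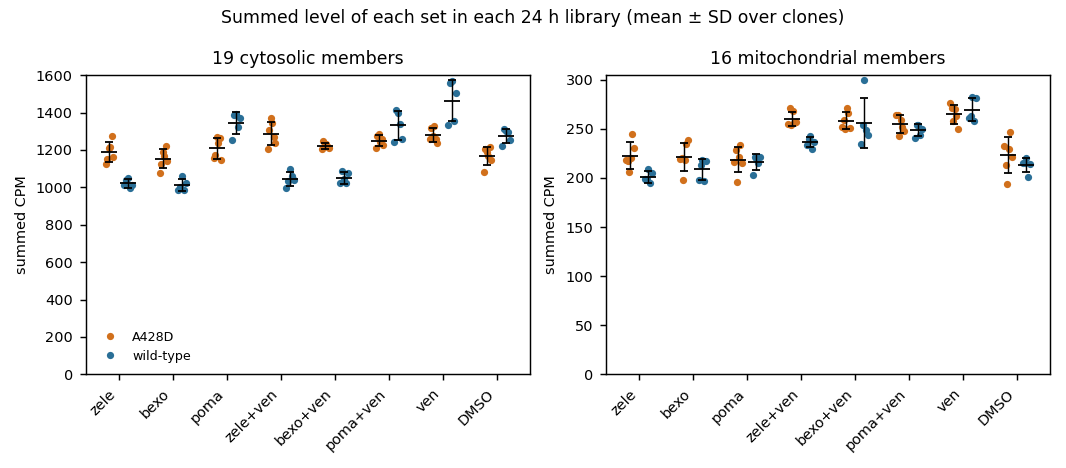
Summed CPM of the 19 cytosolic members (left) and the 16 mitochondrial members (right) in each 24 h library (dots), by condition, with A428D clones left of wild-type clones and the mean ± SD over clones. The wild-type cytosolic sums under zelebrudomide or bexobrutideg, with or without venetoclax, have means of 1013 to 1051 CPM, against 1276 CPM under DMSO, while the mean mitochondrial sums of the groups with venetoclax lie above those under DMSO.

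For 14 amino acids, a cytosolic and a mitochondrial enzyme could be set side by side, with FARSA taken for the cytosolic phenylalanine enzyme. Under zelebrudomide in wild-type clones the cytosolic change was below the mitochondrial one in 13 of 14 pairs, with a median gap of -0.29, and under bexobrutideg in 13 of 14, with a median gap of -0.34. LARS1 and LARS2 were the exception under zelebrudomide. Under pomalidomide the count was 5 of 14 and under venetoclax 9 of 14, where FARSA exceeded FARS2 and VARS1 exceeded VARS2. In A428D clones the counts were 5 of 14 for zelebrudomide, 6 of 14 for bexobrutideg and 9 of 14 for venetoclax. Between A428D and wild-type clones under DMSO, 12 of 14 pairs had the lower difference in the cytosolic enzyme. The comparisons with DMSO share their control libraries, so these counts are not independent of each other.

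**Figure D5:**
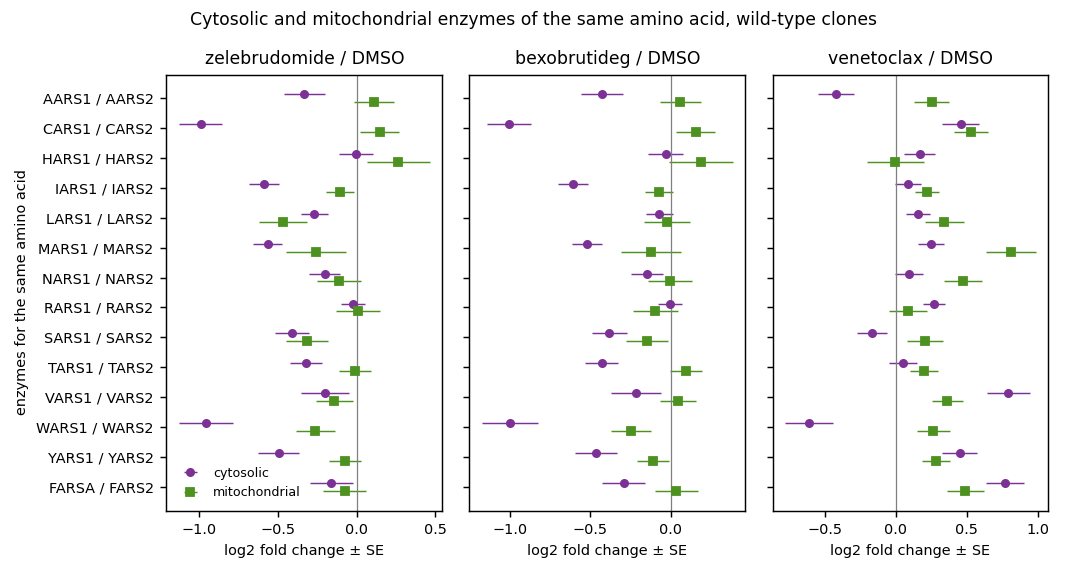
Log2 fold change ± SE in wild-type clones for the cytosolic (circles) and mitochondrial (squares) enzyme of each of 14 amino acids under zelebrudomide, bexobrutideg and venetoclax, each against DMSO. CARS1 and WARS1 lie near -1 in the first 2 panels with CARS2 and WARS2 closer to 0, and MARS2 lies right of MARS1 under venetoclax.

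The untreated libraries were a separate set, so exposure to DMSO and the set cannot be told apart, and values of both sets are scaled apart. In wild-type clones 72.0% of all genes differed between DMSO and untreated libraries, 35.7% higher and 36.4% lower, and in A428D clones 71.0%, 33.9% higher and 37.0% lower. Of 19 cytosolic members 7 were higher and 8 lower under DMSO in wild-type clones, and 6 higher and 10 lower in A428D clones. The lower ones included FARSB (-1.38 ± 0.10 in wild-type and -0.99 ± 0.09 in A428D clones) and FARSA (-1.02 ± 0.09 and -0.83 ± 0.08). The higher ones included AARS1 (1.45 ± 0.12 in wild-type and 1.09 ± 0.11 in A428D clones) and WARS1 (1.37 ± 0.11 and 0.56 ± 0.11). ATF4 itself was higher under DMSO by 1.31 ± 0.11 in wild-type and 0.57 ± 0.10 in A428D clones, and its part was not tested. Of 16 mitochondrial members 4 were higher and 10 lower in wild-type clones, and 3 higher and 9 lower in A428D clones, with MARS2 at -1.03 ± 0.12 and -0.94 ± 0.12 and LARS2 at -1.02 ± 0.12 and -0.83 ± 0.11.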

How the data were processed

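Estimated counts per gene for 100 libraries of 3' RNA-seq were deposited by the authors in 1 table. Per the submitters' processing notes, fastp 0.24.0, STAR 2.7.11, SAMtools 1.22.1, featureCounts of Subread 2.1.1 and edgeR were used with GRCh38. The annotation release and strand setting are not given in the sources used here. Of the deposited estimated counts 8.75% were not whole. All were rounded, and 92 spike entries were left out (at most 0.000976% of a library). The value was not whole in 70% of libraries for IARS1, 54% for GARS1, 43% for CARS1 and 40% for YARS1. Mitochondrial members were affected as well, with 56% for AARS2 and SARS2, 52% for TARS2 and VARS2, 43% for EARS2 and 41% for HARS2. Besides MARS1, other members have a coding gene within 500 bases of their 3' end, among them YARS1, AARS1, VARS1 and YARS2.

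The rounded counts went into edgeR 4.0.16, run in R 4.3.3 (TMM scaling, expression filter at a minimum count of 10, robust quasi-likelihood test). One fit over the 88 libraries of the 24 h set took 14962 genes, with 13397 genes for genotype under DMSO, 14564 for genotype untreated and 15354 for DMSO against untreated, and 27 comparisons in all. DESeq2 1.42.0, other scaling, no filter, clone blocks, and leaving out each clone or the shallowest library were the alternatives. The edgeR steps were tested on simulated data. Those data were drawn without clone effects, so they cannot check how libraries shared by a clone affect the calls. CPM per library and mean ± SD were computed from the same counts. Members and lists were chosen with earlier results of these data known. Named are up to 6 called members a set with the largest change, their partners for the same amino acid, and by role WARS1, GARS1, KARS1, EPRS1, FARSA, FARSB, HARS1 and HARS2. Other calls are listed with the clones that decide them.

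Each replicate is a clone, and 1 clone gave all 8 of its 24 h libraries. Over the 500 most variable genes, libraries of 1 clone deviated together (median r 0.69, lowest 0.06) and 88 of 88 lay nearest their own clone, so the clone pairs them. Clone numbers do not pair the genotypes. Differences between clones of 1 line can be clonal. The main fits of the 24 h set and of DMSO against untreated used group means without clone blocks. Their p-values measure the spread between clones within groups, pooled over the groups, and take the libraries of a clone as independent. The pairing enters only where clones are named as blocks. In the genotype fits under DMSO and untreated each clone entered once. Gene positions are GENCODE 29 and promoters RefSeq, both GRCh38.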

Additional observations from a re-analysis of the deposited data

Results flagged for a closer look

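In groups of 5 or 6 clones, 20 of 180 sets of values had a clone far from the others, where chance gives about 1 in 20. WARS1 had the most. A428D clone 3 was high at 64.0 CPM under zelebrudomide, 78.9 CPM under bexobrutideg and 67.1 CPM under pomalidomide, and wild-type clone 4 at 49.0 CPM under zelebrudomide and 43.2 CPM under bexobrutideg. A428D clone 5 was low in WARS1 at 23.2 CPM under pomalidomide with venetoclax.

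The shallowest library, wild-type clone 3 under bexobrutideg with venetoclax, was far above its group in MARS2 (54.3 CPM), LARS2 (16.9 CPM) and GARS1 (96.7 CPM). GARS1 was also high in wild-type clone 3 under zelebrudomide (79.9 CPM) and low in the same clone untreated (84.4 CPM). CARS1 was low in wild-type clone 5 under pomalidomide with venetoclax (97.3 CPM) and high in untreated wild-type clone 1 (99.0 CPM). LARS2 was low in wild-type clone 1 under pomalidomide with venetoclax (7.29 CPM).

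SARS2 was high in wild-type clone 1 under venetoclax (16.1 CPM) and in A428D clone 5 under zelebrudomide with venetoclax (16.4 CPM). FARSB was low in A428D clone 1 under venetoclax (31.3 CPM) and under zelebrudomide with venetoclax (28.1 CPM). Untreated A428D clone 1 was high in AARS1 (28.5 CPM), and untreated A428D clone 6 in the mitochondrial sum (330.4 CPM).

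The response of 29 member and drug combinations differed between the genotypes by the edgeR test of the difference itself, A428D minus wild-type on the log2 scale. For zelebrudomide these were WARS1 (0.95), CARS1 (0.84), GARS1 (0.78), YARS1 (0.76), IARS1 (0.74), MARS1 (0.62) and EPRS1 (0.57). For bexobrutideg they were WARS1 (1.21), CARS1 (0.96), IARS1 (0.70) and GARS1 (0.63). For zelebrudomide added to venetoclax they were CARS1 (1.41), WARS1 (1.04), GARS1 (0.91), YARS1 (0.80), EPRS1 (0.77), MARS1 (0.71), TARS1 (0.69), FARSA (0.67), IARS1 (0.65), AARS1 (0.56) and NARS1 (0.42). For bexobrutideg added to venetoclax they were CARS1 (1.38), WARS1 (0.95), YARS1 (0.91), MARS1 (0.80), GARS1 (0.72), FARSA (0.63) and SARS1 (0.62).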

How the results depend on the processing

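The text rests on 197 called member results. Over all alternatives 0 reversed, 256 of their values lost the call and 2829 kept it. DESeq2 lost 4 of the 197, RLE scaling 3 and no expression filter 35. With clone as a replicate block 0 of the 187 that could be paired lost the call. RLE scaling moved no median by more than 0.0243. Shallow libraries limit the wild-type combinations, and HARS2 and PARS2 rest on few counts.

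Counts of called members that moved by more than 1.5 times were these; the cause was not tested. In wild-type clones, the mitochondrial count for zelebrudomide was 0 with DESeq2 and 0 without the filter, and for venetoclax 4 without the filter. Pomalidomide gave 1 cytosolic call with the clone block. Bexobrutideg added to venetoclax gave 0 mitochondrial calls without the filter and 2 without the shallowest library. Pomalidomide added to venetoclax gave 4 cytosolic calls with DESeq2, 5 with the clone block and 5 without the shallowest library, and 0 mitochondrial calls without the filter. Zelebrudomide against pomalidomide gave 1 mitochondrial call with the clone block and 1 without the shallowest library.

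In A428D clones, pomalidomide gave 0 cytosolic calls without the filter and 3 with the clone block. Venetoclax gave 13 cytosolic calls with the clone block, 10 without the shallowest library, and 3 mitochondrial calls without the filter. Zelebrudomide added to venetoclax gave 1 cytosolic call with the clone block and 1 without the shallowest library, and pomalidomide added to venetoclax 0 mitochondrial calls without the filter. For the difference in response, the clone block gave 9 cytosolic calls for bexobrutideg, and for bexobrutideg added to venetoclax 11 cytosolic and 1 mitochondrial. For zelebrudomide added to venetoclax it was 1 mitochondrial without the shallowest library. The block changed no other count of called members by over 1.5 times.

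Clone numbers do not pair the genotypes (correlations of -0.35 to 0.00065 under DMSO and -0.18 to 0.11 untreated). A replicate block by clone number gave 3 cytosolic calls under DMSO and 0 untreated, and no filter gave 1 mitochondrial call untreated.

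Leaving out each clone in turn gave these ranges of calls, cytosolic then mitochondrial. In wild-type clones they were 7 to 9 and 0 to 1 for zelebrudomide, 5 to 10 and 0 for bexobrutideg, 8 to 10 and 5 to 11 for venetoclax, 13 to 16 and 1 to 4 for zelebrudomide added to venetoclax, 12 to 14 and 0 to 2 for bexobrutideg added to venetoclax, 1 to 4 and 1 for pomalidomide added to venetoclax, and 8 to 12 and 0 to 1 for zelebrudomide against pomalidomide. In A428D clones they were 0 to 1 and 0 for pomalidomide, 4 to 10 and 3 to 6 for venetoclax, 0 to 1 and 0 for zelebrudomide added to venetoclax, and 0 to 1 and 0 to 1 for pomalidomide added to venetoclax. For the difference in response they were 5 to 8 and 0 for zelebrudomide, 3 to 6 and 0 for bexobrutideg, 9 to 13 and 0 for zelebrudomide added to venetoclax, and 6 to 8 and 0 for bexobrutideg added to venetoclax. For genotype they were 4 to 10 and 0 under DMSO and 1 to 4 and 0 untreated, and for DMSO against untreated 14 to 15 and 11 to 15 in wild-type and 15 to 18 and 10 to 12 in A428D clones.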
